A study of Mus musculus with 8 samples.

Results

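The integrated stress response genes followed here are 10 genes: the transcription factor genes Atf4, Atf5, Ddit3 and Xbp1, the phosphatase subunit gene Ppp1r15a, and the target genes Trib3, Asns, Chac1, Sesn2 and Herpud1. They were chosen by gene name, and 17 of the 56605 probes on the array carry one of these names. All 10 genes were among the 16034 genes tested, with 16 probes. The probe not tested is the dimmer one of Asns, which was well above background on no array. RNA came from the tibialis anterior, a largely fast-twitch muscle at the front of the shin, of male C57BL/6J mice that were 14 weeks old. Of the samples, 4 came from mice given oral Porphyromonas gingivalis, a bacterium associated with gum disease, over 6 weeks from the age of 8 weeks, and 4 from control mice. The bacteria were delivered by feeding needle in 100 µL of saline, and all mice, controls included, were on a high-fat diet, per the labels' protocols. The sources used here state neither the treatment of the control mice nor the bacterial dose. The labels do not say outright that each sample is a separate mouse. The p-values therefore set the group difference against the spread between these samples, which may not be the spread between mice.

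The integrated stress response is a brake on protein synthesis. Kinases that sense unfolded proteins in the endoplasmic reticulum, lack of amino acids, lack of haem or double-stranded RNA phosphorylate the translation factor eIF2, which lowers general translation while a few mRNAs, Atf4 among them, are translated more. ATF4 then induces genes of amino acid synthesis and transport, and PPP1R15A (GADD34) brings a phosphatase to eIF2 and closes the loop. In skeletal muscle the pathway is known for its response to mitochondrial defects and to fasting. Its main switch acts on translation and on protein phosphorylation, which an array of mRNA does not read.

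Over tested probes, any pair of arrays correlated at 0.991 to 0.995. The P. gingivalis arrays were dimmer, with a 75th percentile of 238 to 255 signal units, against 275 to 306 on the control arrays. The ranges were separate (two-sided exact permutation p = 0.0286, the smallest that 4 arrays against 4 allow). The P. gingivalis arrays filled row 2 of the single slide and the control arrays row 1, and the effect of the row cannot be told apart from that of the treatment. The authors' value table disagrees with the scanner files on the groups. Each of its 8 columns correlated with 1 array at 0.833 to 0.88 and with no other above 0.0784. That array carried the group of the column in 4 cases and the opposite group in the other 4. In the order of its columns the matched arrays run along the slide, alternating between row 1 and row 2. Which source holds the right groups was not settled, and the values below follow the scanner files unless the value table is named. All 10 markers of muscle fibres were well above background, and their summed signal, in multiples of the array's 75th percentile, ran from 7769 to 8174 on the P. gingivalis arrays and from 6938 to 7673 on the control arrays. The 6 fibroblast markers, all higher in P. gingivalis muscle, summed to 171 to 197 on the P. gingivalis arrays and 135 to 176 on the control arrays. Dcn, the brightest, weighs most in the sum and differed by 0.13 ± 0.08 (log2, P. gingivalis minus control, SE). Col1a1, Col3a1 and Lum differed by 1.01 ± 0.29, 0.94 ± 0.26 and 0.65 ± 0.15 on their brightest probes. Their groups were separate (adjusted p = 0.336, 0.329 and 0.323 by limma). Pdgfra and Dpt, at 0.21 and 0.36, had overlapping groups, as did Dcn. The 6 macrophage markers summed to 23.9 to 32.9 on the P. gingivalis arrays and 20.5 to 26.3 on the control arrays. Of 6 neutrophil markers, 5 were well above background, and all 6 summed to 1.8 to 1.95 on the P. gingivalis arrays and 1.53 to 4.57 on the control arrays. Within that list S100a8 and S100a9 differed by −3.42 ± 0.97 and −2.93 ± 0.80 (log2, P. gingivalis minus control, SE) and Elane by 0.36 ± 0.08. Groups overlapped for S100a8 and S100a9 (adjusted p = 0.329 each by limma), and S100a8 was well above background on 6 of the 8 arrays. Elane had separate groups (adjusted p = 0.323 by limma). All 5 endothelial markers were lower in P. gingivalis muscle, with sums of 7.87 to 10.3 on the P. gingivalis arrays and 9.36 to 11.7 on the control arrays. Kdr, at −0.59 ± 0.15, had separate groups, while Pecam1, Cdh5, Emcn and Tek lay near 0, at −0.04, −0.05, −0.03 and −0.01. The summed ranges of the adipocyte, Schwann cell, satellite cell and erythroid markers overlapped between the groups, and Myf5, a satellite cell marker, was never well above background. The part of these markers in the results below was not tested. Fewer cells of a type and less RNA per cell cannot be told apart in such tissue samples.

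The promoters of 5 members are shown because they hold one of the elements searched, which are the known binding motifs of the factors of this response. The windows reach from 250 bases before to 50 bases after the annotated start of the gene (RefSeq, GRCm38.p6) and run 5′ to 3′ on the gene's strand. Capitals mark the match: the cAMP response element TGACGTCA in Ppp1r15a, the C/EBP-ATF composite element TGATGNAA (on either strand) in Asns, Chac1, Trib3 and Herpud1, and in Herpud1 also the ER stress element II, ATTGG and CCACG joined by 1 free base.
Ppp1r15a, chr7:45526219-45526518, minus strand: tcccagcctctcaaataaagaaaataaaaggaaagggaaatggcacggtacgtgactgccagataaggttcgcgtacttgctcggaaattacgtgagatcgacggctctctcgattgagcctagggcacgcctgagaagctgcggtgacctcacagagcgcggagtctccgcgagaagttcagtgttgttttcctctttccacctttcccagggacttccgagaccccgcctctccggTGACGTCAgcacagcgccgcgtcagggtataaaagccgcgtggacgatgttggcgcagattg
Asns, chr6:7693160-7693459, minus strand: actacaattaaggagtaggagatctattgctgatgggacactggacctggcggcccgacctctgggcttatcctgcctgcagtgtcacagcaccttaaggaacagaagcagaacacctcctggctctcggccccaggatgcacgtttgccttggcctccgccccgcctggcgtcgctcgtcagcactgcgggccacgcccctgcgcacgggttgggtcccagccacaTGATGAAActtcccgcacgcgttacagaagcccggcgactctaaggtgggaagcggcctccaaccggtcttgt
Chac1, chr2:119350992-119351291, plus strand: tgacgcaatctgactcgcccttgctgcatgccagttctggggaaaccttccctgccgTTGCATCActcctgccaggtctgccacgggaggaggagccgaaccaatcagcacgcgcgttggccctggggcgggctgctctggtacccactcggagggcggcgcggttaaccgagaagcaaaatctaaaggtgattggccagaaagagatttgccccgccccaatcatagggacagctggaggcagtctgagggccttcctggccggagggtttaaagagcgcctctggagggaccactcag
Trib3, chr2:152344011-152344310, minus strand: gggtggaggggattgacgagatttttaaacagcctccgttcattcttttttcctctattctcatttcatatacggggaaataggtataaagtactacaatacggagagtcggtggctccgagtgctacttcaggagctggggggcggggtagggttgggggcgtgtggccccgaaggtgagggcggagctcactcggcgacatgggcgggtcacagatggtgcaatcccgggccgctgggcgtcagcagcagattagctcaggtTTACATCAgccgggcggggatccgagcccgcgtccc
Herpud1, chr8:94386179-94386478, plus strand: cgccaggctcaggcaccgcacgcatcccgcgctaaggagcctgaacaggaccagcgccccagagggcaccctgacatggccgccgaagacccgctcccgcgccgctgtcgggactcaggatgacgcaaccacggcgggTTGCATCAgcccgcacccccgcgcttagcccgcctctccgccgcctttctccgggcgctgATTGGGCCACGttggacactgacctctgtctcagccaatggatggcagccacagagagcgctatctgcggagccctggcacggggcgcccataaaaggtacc
The cAMP response element of Ppp1r15a lies 12 to 5 bases before the start. The composite element lies 23 to 16 bases before the start in Asns, 193 to 186 before it in Chac1 and 112 to 105 before it in Herpud1, and begins 15 bases after it in Trib3. The second element of Herpud1 lies 52 to 42 bases before the start. All 10 members were matched in the promoter table, with 11 windows because Atf5 has 2. The composite element stands in 4 of these 11 windows and in 3.97% of all 32851 windows of this length. The cAMP response element stands in 1 of 11 and in 1.79% of all, and ER stress element II in 1 of 11 and in 0.0365% of all. The ER stress element, CCAAT followed by CCACG at its known spacing, and the unfolded protein response element TGACGTGG were in none of the 11 windows, and in 0.119% and 0.676% of all. All motifs were searched on both strands, and no 2 matches overlap. The elements were picked as known motifs of this response, so their shares in its genes are a description and no test of enrichment.

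None of the 10 genes passed an adjusted p of 0.05, as was true of every gene tested (0% of 16034 genes by limma). Ppp1r15a and Atf5 stood lower in P. gingivalis muscle with groups that did not overlap, against 7.07% of all tested genes with separate groups and 3.83% with separate groups in that direction and 3.24% in the other. The same 2 genes were the members with an unadjusted p under 0.05, a level reached by 10.7% of tested genes, 4.86% higher and 5.83% lower in P. gingivalis muscle. Atf5 lost that level under some alternatives, its unadjusted p by limma (same fit across all probes) being 0.0773 with median scaling, 0.0601 with the replicate block, 0.0687 without P. gingivalis 2 and 0.0623 without control 1. Of the 10 genes, 8 were lower and 2 higher in P. gingivalis muscle, with a median log2 change of −0.06, against 6 lower and 4 higher with a median of −0.025 under median scaling. Over all tested genes the median was −0.01, with 7332 genes higher and 8702 lower, and it turned to 0.018 with median scaling and 0.021 with normexp. Of the 16 tested probes of the members, 13 were lower in P. gingivalis muscle and 3 were higher.

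**Figure D1:**
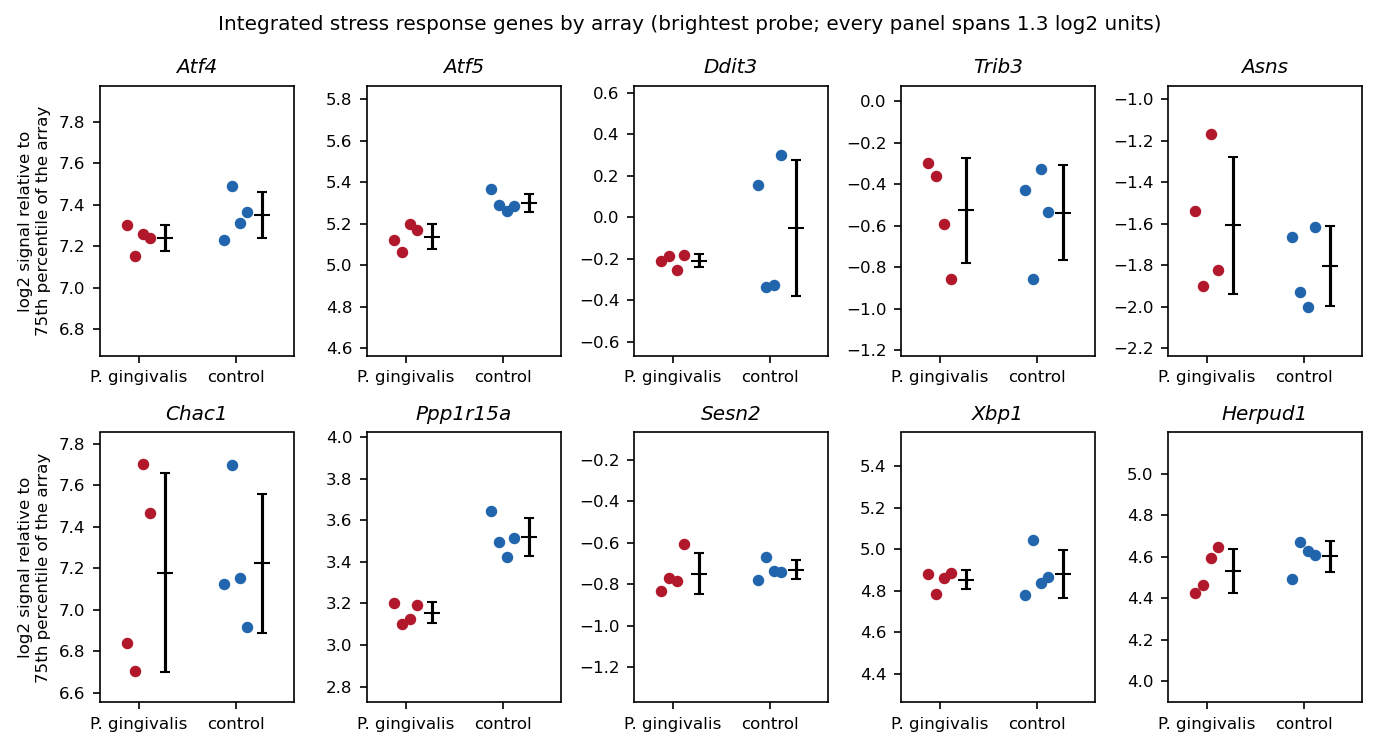
Log2 signal relative to the array's 75th percentile (vertical axes, each spanning the same distance) of each of the 10 genes in the 4 P. gingivalis arrays (red, left) and the 4 control arrays (blue, right), with points for arrays and black bars for mean and SD. The groups are separate for Ppp1r15a and Atf5, while the arrays of Chac1, Asns and Trib3 spread widely within both groups.

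Ppp1r15a showed the lowest p of the members. It encodes GADD34, the stress-induced subunit that directs protein phosphatase 1 to phosphorylated eIF2. Its level (log2 signal relative to the array's 75th percentile, the scale of all levels below) was 3.20, 3.10, 3.13 and 3.19 in P. gingivalis muscle, against 3.65, 3.49, 3.43 and 3.51 in control muscle. Each of the 4 P. gingivalis arrays lay below each control array. The means were 3.16 ± 0.05 in P. gingivalis muscle and 3.52 ± 0.09 in control muscle (SD, n = 4 each), a log2 change of −0.36 ± 0.07 (SE) or 0.777-fold (95% confidence interval 0.70 to 0.864). The adjusted p was 0.309 by limma, with an unadjusted p of 0.000513 in the same fit, and the probe ranked 46 of 31649 tested. With normexp background correction the change was −0.41 and the adjusted p 0.0289 by limma. Under that setting 9395 of the 31649 probes had an unadjusted p under 0.05 by limma, against 3544 in the main fit. The value rests on 1 probe, on chromosome 7 from 52778320 to 52778379 (mm9). The last 30 of the probe's 60 bases are AT-rich, with the 4 copies of ATTTA, which overlap, in capitals: cctattATTTATTTATTTATTTAtttgaat. Only 2 other tested probes hold at least 4 such copies, with log2 changes of −0.24 and −0.13 and an unadjusted p above 0.05 each. Whether the probe reads Ppp1r15a alone was not tested.

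Atf5 was the other member with separate groups, and it was so on both of its probes. ATF5 is a bZIP factor of the ATF4 family whose mRNA is also translated more under eIF2 phosphorylation, and it is known as a regulator of the mitochondrial unfolded protein response. On its brighter probe the log2 signal was 5.12, 5.06, 5.20 and 5.17 in P. gingivalis muscle and 5.37, 5.29, 5.26 and 5.28 in control muscle. The highest P. gingivalis array lay just under the lowest control array. The change was −0.16 ± 0.06 (log2, SE) or 0.893-fold (interval 0.814 to 0.981), with an unadjusted p of 0.0234 and an adjusted p of 0.392 by limma. The dimmer probe gave −0.18 ± 0.06 (unadjusted p = 0.0133 and adjusted p = 0.360 by limma), with 4.35, 4.29, 4.27 and 4.37 in P. gingivalis muscle and 4.46, 4.58, 4.48 and 4.48 in control muscle. Both probes lie on chromosome 7, from 52067627 to 52067686 and from 52067718 to 52067777 (mm9). Both read neighbouring bases of the same transcript, so they are not independent samples of the gene.

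Atf4 itself, the central factor of the response, did not separate the groups. Its brighter probe stood at 7.30, 7.15, 7.26 and 7.24 in P. gingivalis muscle and 7.23, 7.49, 7.31 and 7.37 in control muscle. The control arrays reached higher, but control 1 lay within the P. gingivalis range. The log2 change was −0.11 ± 0.07 (SE, adjusted p = 0.588 by limma), with an interval of 0.824-fold to 1.04-fold. The second Atf4 probe gave −0.07 ± 0.09. These probes lie on chromosome 15 from 80087902 to 80087961 and from 80087079 to 80087138 (mm9).

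Ddit3, which encodes CHOP, a factor of prolonged stress that induces Trib3, Chac1 and Ppp1r15a, differed between groups more in its spread than in its level. On the probe of highest signal it stood at −0.21, −0.19, −0.25 and −0.18 in P. gingivalis muscle and 0.15, −0.34, −0.33 and 0.30 in control muscle. The 4 P. gingivalis arrays lay within 0.07 of each other, while the controls fell into a higher and a lower pair on either side of them. The SD was 0.03 in P. gingivalis muscle and 0.33 in control muscle, a difference in spread that was not tested. The second probe, which is assigned to an Ensembl transcript, did not show that pattern: its SD was 0.16 in P. gingivalis muscle and 0.11 in control muscle. The log2 changes were −0.16 ± 0.15 and −0.14 ± 0.10 (SE), with adjusted p of 0.707 and 0.608 by limma. The probes lie on chromosome 10, from 126732518 to 126732821, a span longer than the probe, and from 126731579 to 126731638 (mm9).

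Xbp1 encodes the transcription factor of the IRE1 arm of the unfolded protein response, whose mRNA is cut and rejoined under stress. Each of its 3 probes lists 2 RefSeq transcripts of the gene, so none of them was used to read that splicing. The brightest stood at 4.88, 4.79, 4.86 and 4.89 in P. gingivalis muscle and 4.78, 5.04, 4.84 and 4.87 in control muscle. All P. gingivalis arrays lay within the control range. Its log2 change was −0.03 ± 0.07 (SE, adjusted p = 0.905 by limma), with an interval of 0.875-fold to 1.1-fold. The other probes gave −0.03 ± 0.08 and 0.11 ± 0.06 and so differed in sign, with adjusted p of 0.915 and 0.533 by limma. They lie on chromosome 11 from 5425816 to 5425875 for the brightest, and from 5424970 to 5425029 and from 5424869 to 5424928 for the others (mm9).

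**Figure D2:**
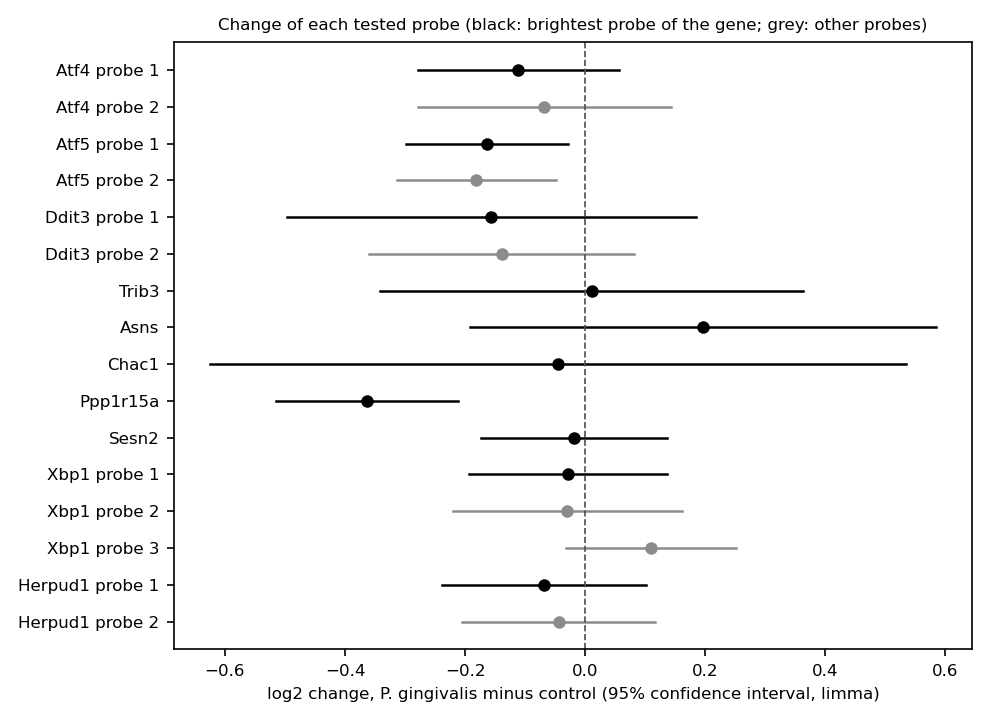
Log2 change, P. gingivalis minus control (horizontal axis), of the 16 tested probes of the 10 genes, with 95% confidence intervals from limma, black for the brightest probe of each gene and grey for the others. The intervals of Ppp1r15a and of both Atf5 probes lie below 0, before adjustment for the number of probes tested, and that of Chac1 is the widest, from −0.62 to 0.53.

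The target genes Chac1, Asns and Trib3 varied more among samples of 1 group than between the groups. CHAC1 breaks down glutathione and is induced through ATF4 and CHOP. Its log2 signal was 6.84, 6.71, 7.70 and 7.46 in P. gingivalis muscle and 7.12, 7.70, 7.15 and 6.92 in control muscle. P. gingivalis 3 and control 2 were alike at the top, and P. gingivalis 1 and 2 at the bottom, over a range of 0.995 across the 8 arrays, the widest of the members. The log2 change was −0.04 ± 0.25 (SE, adjusted p = 0.962 by limma), and its interval of 0.649-fold to 1.45-fold leaves room for changes larger than that of Ppp1r15a. The probe lies on chromosome 2 from 119179990 to 119180049 (mm9).

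Asns encodes asparagine synthetase, a textbook target of ATF4 under amino acid shortage. It stood at −1.54, −1.90, −1.17 and −1.82 in P. gingivalis muscle and −1.67, −1.93, −2.0 and −1.62 in control muscle. P. gingivalis 3 was again the highest array, and the other 3 P. gingivalis arrays lay within or just above the control range. The log2 change was 0.20 ± 0.17 (SE) or 1.15-fold (interval 0.875 to 1.5), with an adjusted p of 0.680 by limma, and without P. gingivalis 3 it was 0.05. The tested probe lies on chromosome 6 from 7625171 to 7625228 (mm9).

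Trib3 encodes a pseudokinase that is induced by ATF4 and CHOP and has been described as an inhibitor of AKT. It stood at −0.30, −0.36, −0.59 and −0.86 in P. gingivalis muscle and −0.43, −0.86, −0.33 and −0.53 in control muscle. The groups covered nearly the same range. The log2 change was 0.01 ± 0.15 (SE, adjusted p = 0.987 by limma), with an interval of 0.789-fold to 1.29-fold. The position of its probe is chromosome 2, 152163161 to 152163220 (mm9).

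Sesn2 and Herpud1 were steady across the arrays. SESN2 is a leucine sensor that restrains mTORC1, and its gene is a target of ATF4. Its log2 signal was −0.83, −0.77, −0.79 and −0.60 in P. gingivalis muscle and −0.78, −0.67, −0.73 and −0.74 in control muscle, over a range of 0.23 across the 8 arrays, the narrowest of the members. The log2 change was −0.02 ± 0.07 (SE, adjusted p = 0.937 by limma), with an interval of 0.886-fold to 1.1-fold. HERPUD1 is a membrane protein of the endoplasmic reticulum that takes part in the degradation of misfolded proteins. It stood at 4.43, 4.46, 4.59 and 4.65 in P. gingivalis muscle and 4.49, 4.67, 4.63 and 4.61 in control muscle. Its ranges overlapped, with log2 changes of −0.07 ± 0.07 and −0.04 ± 0.07 on its 2 probes (SE, adjusted p of 0.744 and 0.836 by limma). The Sesn2 probe lies on chromosome 4 from 132048858 to 132048917, and those of Herpud1 on chromosome 8 from 96919117 to 96919176 and from 96918575 to 96918634 (mm9).

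With the groups of the authors' value table, the separation of Ppp1r15a and Atf5 was not seen. On the same scanner signals, Ppp1r15a then ran from 3.13 to 3.51 in P. gingivalis muscle and from 3.10 to 3.65 in control muscle, with a log2 change of −0.05 ± 0.14 (SE). Atf5 ran from 5.17 to 5.28 in P. gingivalis muscle and from 5.06 to 5.37 in control muscle, with a change of 0.02 ± 0.08. In both genes each group of the value table then holds 2 arrays of the higher and 2 of the lower level. Under the scanner groups, the values of the value table gave −0.39 ± 0.06 for Ppp1r15a and −0.17 ± 0.05 for Atf5 (SE, adjusted p of 0.165 and 0.295 by limma). With the 4 arrays that both sources give the same group, the change of Ppp1r15a was −0.41 ± 0.11 and that of Atf5 −0.14 ± 0.10. As the scanner groups of both genes do not overlap, the lost separation and the sign on those 4 arrays follow from the groupings alone. They are no test of which source is right. The scanner groups are also the slide rows, so the levels of both genes divide the arrays by slide row.

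**Figure D3:**
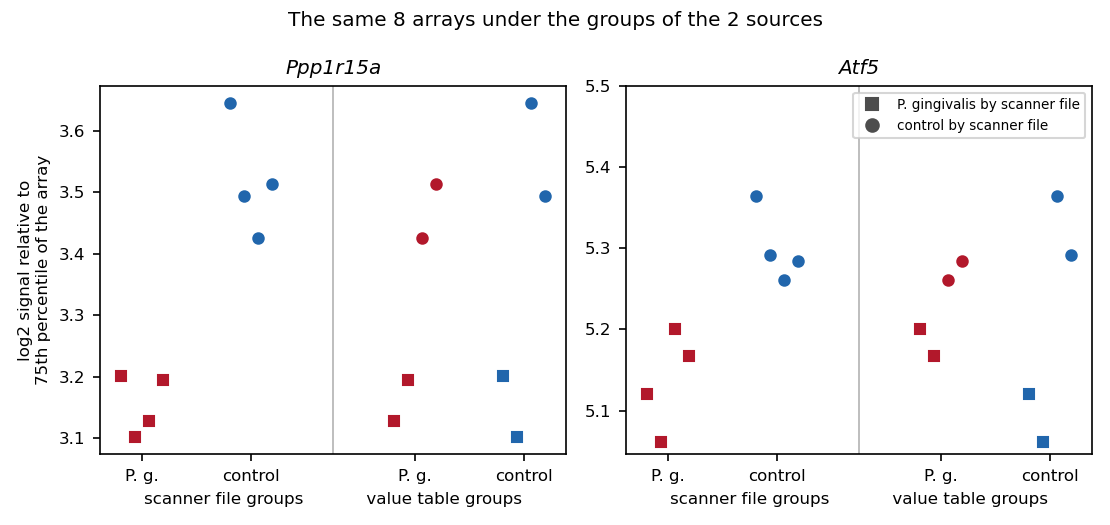
Log2 signal relative to the array's 75th percentile (vertical axis) of Ppp1r15a and Atf5 on the same 8 arrays, grouped as in the scanner files (left of each panel) and as in the authors' value table (right), with P. gingivalis (P. g.) in red and control in blue. Squares are arrays that the scanner files label P. gingivalis and circles those they label control, and each value table group holds 2 of each.

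The members did not vary as 1 block across the arrays. Of the 45 pairs of members, 27 correlated positively and 18 negatively over the 8 arrays, with a median r of 0.14. In 8 pairs the unadjusted permutation p of Pearson's r was under 0.05, and in 0 pairs after Benjamini-Hochberg adjustment over the 45 pairs. The highest r belonged to Ppp1r15a and Atf5. Both separate the groups, so no r over all arrays is given, and 4 arrays a group are too few for one within groups. Atf4 and Xbp1 had r = 0.87 and Spearman's rho = 0.62 (exact permutation p = 0.0105 and 0.115, adjusted 0.184 and 0.736, n = 8), and r fell to 0.33 without the 2 arrays farthest from the median of Atf4. Leaving those arrays out also narrows the range of Atf4, so how far the relation rests on them was not settled. Sesn2 and Herpud1 had r = 0.78 and rho = 0.88 (exact permutation p = 0.0193 and 0.00724, adjusted 0.218 and 0.163, n = 8), with r = 0.77 without the 2 farthest arrays. The lowest r was that of Trib3 and Sesn2, at −0.83 with rho = −0.57 (exact permutation p = 0.0123 and 0.151, adjusted 0.184 and 0.736, n = 8), and −0.24 without the 2 farthest arrays. Outside the list, the tested genes most like the mean of the 10 members over the 8 arrays were Ephx2 (r = 0.97), Gatd3a (0.95), Zfp462, Syne2 and Scn2a (0.94 each). They are the highest among all tested genes outside the list, which share arrays and scaling, and are given as a description.

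The wider pathway was looked at through 4 further lists of tested genes, and none of their genes passed adjustment (0 of 96 by limma). An unadjusted p under 0.05 was found for 10 of the 96 genes, a share near the 10.7% of all tested genes, so the genes named from these lists are a description. Of 18 genes for eIF2, its kinases, eIF2B and partners, 7 were higher and 11 lower in P. gingivalis muscle (median log2 change −0.02). At an unadjusted p under 0.05 there were 1 higher and 1 lower gene. Eif2ak1, the haem-sensing kinase HRI, was at 0.50, 0.52, 0.54 and 0.58 in P. gingivalis muscle and 0.42, 0.35, 0.39 and 0.42 in control muscle, with no overlap and a log2 change of 0.14 ± 0.05 (SE, adjusted p = 0.415 by limma). Its other tested probes stood at 0.27 with separate groups and at 0.05 with overlap. Eif2ak4, the amino acid sensor GCN2, differed by −0.21 ± 0.08 on its brightest probe, and its 2 dimmer tested probes stood at −0.22 and 0.13. Impact, which restrains GCN2, differed by −0.23 ± 0.10. Eif2ak3, which encodes the endoplasmic reticulum kinase PERK, stood at −0.01 ± 0.12 on the brighter of its 2 probes, the only one given. Ppp1r15b, the constitutive partner of Ppp1r15a, stood at 0.01 ± 0.06.

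Of 29 tested genes among 32 other ATF4 and CHOP targets, 12 were higher and 17 lower (median log2 change −0.03), with 2 higher and 4 lower at an unadjusted p under 0.05, where 4.86% of all tested genes were higher and 5.83% lower. Cebpg, a bZIP partner of ATF4, had the lowest p of the 4 lists. It stood at 1.90, 1.82, 1.76 and 1.70 in P. gingivalis muscle and 2.16, 2.07, 2.14 and 1.98 in control muscle, with no overlap and a change of −0.29 ± 0.07 (SE, adjusted p = 0.323 by limma). Its other probe did not overlap either, at −0.16 ± 0.06. Slc3a2, the heavy chain of the amino acid transporters that carry leucine and cystine, differed by 0.36 ± 0.09 on its brightest probe, while its 2 dimmer probes went the other way, at −0.11 and −0.13. Gpt2, a mitochondrial alanine aminotransferase, differed by 0.23 ± 0.07 with separate groups on its brighter probe. On its dimmer probe, at 0.18, the groups overlapped. Ddit4, a stress-induced inhibitor of mTORC1, had the largest difference of the list at 0.92 ± 0.42 (adjusted p = 0.460 by limma). The hormone genes Gdf15 and Fgf21, known as circulating signals of this response in muscle, were well above background on 1 and on 0 of the 8 arrays and were not tested.

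The 20 cytosolic aminoacyl-tRNA synthetase genes, many of them ATF4 targets, lay close to 0, with 5 higher and 15 lower (median −0.03, range −0.16 to 0.11). Farsa and Sars had separate groups on their brightest probes, as did 7.07% of all tested genes, at −0.16 ± 0.06 and −0.11 ± 0.05. The other tested probes of Farsa overlapped between the groups, at −0.11, −0.08 and 0.07. Hars stood at 0.11 ± 0.07. Of 29 tested genes among 31 for endoplasmic reticulum stress sensors and chaperones, 14 were higher and 15 lower (median −0.01). Pdia4, a disulfide isomerase, was the only one at an unadjusted p under 0.05, at 0.26 ± 0.10, with Ssr1 at 0.16 ± 0.09 and Calr at −0.11 ± 0.07. Hspa5, the chaperone BiP and the usual marker of stress in this compartment, stood at 0.13 ± 0.08 (SE, adjusted p = 0.590 by limma). That is its brightest tested probe of 3 on the array, and the others are not given.

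**Figure D4:**
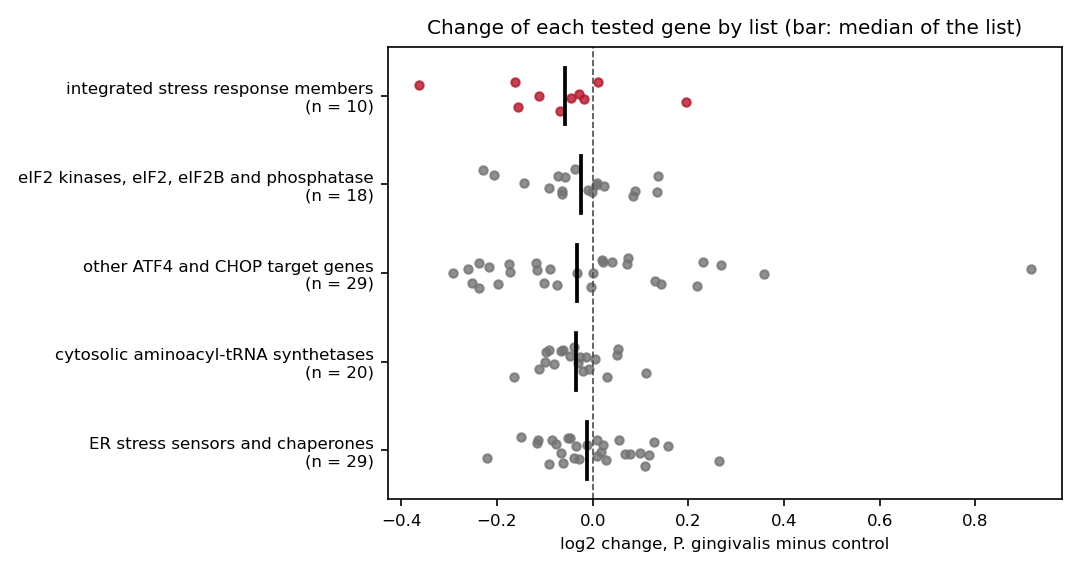
Log2 change, P. gingivalis minus control (horizontal axis), of each tested gene in the 10 integrated stress response genes (red) and in 4 further lists (grey), with a black bar at the median of each list. The medians lie between −0.06 and −0.01, and the one gene far to the right is Ddit4 at 0.92.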

How the data were processed

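Total RNA (200 ng per sample, 1 dye, Cy3, per the labels' protocols) was hybridised to an Agilent array whose probe positions are on mm9. The authors' deposited files hold each spot's intensity as Agilent Feature Extraction wrote it (release 11.0.1.1 in the file headers, 11.1 in the submitters' processing notes), background-subtracted and detrended per array and not scaled between arrays. Spots well above background made up 56.3% to 59.3% of an array, and 0 were saturated. The authors' deposited value table gives log2 signals of 24764 probes with nearly equal quantiles in every column, and the sources used here do not state its scaling.

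Here, log2 intensities were taken relative to the 75th percentile of an array's non-control spots, without outlier spots. A probe was tested if it was well above background on 4 or more of the 8 arrays (31649 probes), and a gene stands for its tested probe of highest mean. Gene names came from the RefSeq table of GRCm38.p6. limma 3.58.1 (R 4.3.3) compared the groups by lmFit and eBayes, two-sided and without covariates, and p-values were adjusted by Benjamini-Hochberg over all tested probes, with calls at 0.05. Fold changes are P. gingivalis over control. The procedure was tested on simulated data with log2 changes of −2, −1, 1 and 2 and no effect of slide row. Those changes are larger than that of any member, so the simulation does not show whether changes of the members' size would be called. Figures used matplotlib 3.10.9.

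Members and lists were chosen with earlier results of these data known. Named are all members, the 3 genes of lowest p of each pathway list, the 5 genes most like the members' mean, and the 3 member pairs of highest and the 1 of lowest correlation. Eif2ak3, Ppp1r15b, Ddit4, Gdf15, Fgf21 and Hspa5 fall outside that rule and were named after their values were seen. Alternatives were another background correction, other scalings and filters, an intensity trend, a replicate block, the mean of a gene's probes, single arrays left out and the value table. The number of arrays limits the precision.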

Additional observations from a re-analysis of the deposited data

Results flagged for a closer look

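One array stood apart within its group in the genes and probes named. Scn2a, a sodium channel gene named for its likeness to the members' mean, was at −4.05 on control 3 (log2 signal relative to the 75th percentile), below the other controls at −3.98 to −3.96. The gap is small in size, and 1 of 68 groups checked (1.47%) showed such a gap, where chance gives about 1 in 20. None of the 17 member probes had an array that far from its group.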

How the results depend on the processing

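No probe and no member passed adjustment in the main analysis, with quantile normalization, median scaling, the stricter filter, the replicate block or any 1 array left out. Normexp background correction called 18 probes, 1 of them a member, Ppp1r15a (−0.41). It also brought 9395 probes to an unadjusted p under 0.05 by limma, against 3544 in the main analysis. Calls of other probes numbered 2 without a filter, 2 with an intensity trend and, added after seeing the data, 1 in the value table under the groups of the matched arrays. The members' median was 0.032 in the value table under its own labels, 0.024 with its groups on the scanner arrays, and −0.11 to −0.045 with 1 array left out. It was −0.10 without P. gingivalis 3 and −0.11 without P. gingivalis 4. It was −0.093 with normexp, −0.039 with quantile normalization (7 members lower, 3 higher) and −0.025 with median scaling (6 lower, 4 higher).

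Of 200 values of single members under the alternatives, 166 kept direction and side of the threshold, 33 changed sign and 1 gained a call. The cause was not tested. Ppp1r15a kept its sign in all 20 alternatives, between −0.41 and −0.026, and so did Asns, between 0.050 and 0.30. Many of these could not change the sign of Ppp1r15a. Its scanner groups do not overlap, which fixed the sign when arrays were left out. Another filter, the intensity trend and the replicate block left its change at −0.36 by construction. Under the value table's own labels the changed signs were Atf4 at 0.026, Atf5 0.030, Ddit3 0.053, Trib3 −0.097, Chac1 0.24, Sesn2 0.034, Xbp1 0.0097 and Herpud1 0.13. With its groups on the scanner arrays they were Atf4 at 0.0013, Atf5 0.019, Ddit3 0.029, Trib3 −0.093, Chac1 0.22, Sesn2 0.046 and Herpud1 0.11. On the 4 arrays of agreed group, an alternative also added after seeing the data, they were Trib3 at −0.082, Chac1 0.17, Sesn2 0.027 and Herpud1 0.038. Sesn2 was at 0.0015 with quantile normalization and 0.013 with median scaling, and Xbp1 at 0.0036 with median scaling, 0.017 as the mean of its probes and 0.057 in the value table under the matched groups. With 1 array left out Trib3 ran from −0.10 to 0.12, Chac1 from −0.22 to 0.11, Sesn2 from −0.066 to 0.0098 and Xbp1 from −0.062 to 0.026.

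The numbers in the sample titles, which are also the slide columns, did not pair the samples: deviations of same-numbered arrays correlated at 0.0069 to 0.063, and not every array correlated best with its own number. With them as a replicate block 0 probes passed, 3406 had an unadjusted p under 0.05 (3544 without the block), 0 members passed, the members' median was −0.06 and Ppp1r15a stayed at −0.36 (adjusted p = 0.434 by limma). The number of arrays and the single probe of Ppp1r15a limit what can be said.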
